A study of Caenorhabditis elegans with 12 samples.

Results

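The microRNA miR-57 of Caenorhabditis elegans is named in the deposited count table by the mature arms of its precursor, cel-miR-57-5p and cel-miR-57-3p. These are 2 of the 471 features in that table, and both passed the filter on low counts that left 250 features for testing. The miRNA was selected on its own values, because miR-57-5p is abundant and was higher in the count columns of the mbl-1(tm1563) mutant and of one of the edited mbl-1 lines. Its difference from wild type in those groups is therefore given as a description, without a test. A test was made only for the remaining edited line, although the wild-type libraries it is set against also served in the choice.

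The small RNA libraries came from whole worms collected as L4 larvae, the last larval stage, after synchronization by bleaching and growth at 20 °C on OP50 bacteria. The 4 genotypes had 3 libraries each, which the labels describe as biological replicates, and no label says how many animals were pooled for a library. Wild type was the N2 strain. The mutants carried mbl-1(tm1563), mbl-1(syb4318) or mbl-1(syb4345), and the last pair express either a short or a long MBL-1 protein. The count columns of that pair bear the codes MED and SH, which no label ties to an allele or to a protein length, so the groups are named here ME line and SH line. The tm1563 columns, headed with the gene name alone, were assigned by inference. The comparison asks whether the loss of MBL-1, or of some of its isoforms, alters miRNA abundance. These libraries hold no mRNA, so the state of mbl-1 itself could not be checked in them.

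A miRNA gene is transcribed as a longer RNA that folds into a hairpin, from which a pair of arms is released. One arm, the guide, is usually kept by an Argonaute protein and represses matching mRNAs, while the other is mostly degraded. In the worm, miR-57 is known for a role in posterior cell fate, in a negative feedback loop with nob-1, a posterior Hox gene of the Abdominal-B type. The 5′ end of miR-57-5p resembles that of miR-10, which other animals encode inside their Hox clusters. MBL-1 is the worm Muscleblind protein, an RNA-binding regulator of splicing, and the human protein MBNL1 is known to bind a miRNA precursor, that of miR-1.

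In the Ensembl annotation of WBcel235, the mir-57 gene lies on chromosome II at 7850499 to 7850597 on the minus strand, and spans 99 nt. The 5p arm occupies 7850559 to 7850582 (24 nt) and the 3p arm 7850522 to 7850543 (22 nt), with 15 nt of loop between them. The gene lies in no protein-coding gene. The nearest one on the side of lower coordinates is acr-7, a nicotinic acetylcholine receptor subunit gene 701 bp away, and the nearest on the other side lies 2260 bp away. An annotated noncoding RNA of the plus strand overlaps 5 bases at the upstream end of the hairpin and ends its overlap 10 bases short of the 5p arm. No other miRNA gene is annotated within 10 kb, and the next ones, mir-85 and mir-236, are 542955 and 820221 bp away, so miR-57 is not annotated as part of a cluster. The gene mbl-1 is on X and nob-1 on III.

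The guide arm, miR-57-5p, was among the abundant miRNAs of every library. Levels are given as CPM, the counts of an arm per 1000000 counts of its library, scaled between libraries by the trimmed mean of M values (TMM). In wild type, miR-57-5p stood at 8214, 8753 and 9202 CPM in libraries 1, 2 and 3, with a mean of 8723 ± 495 (SD, n = 3). In tm1563 it stood at 16613, 15011 and 14984 CPM, with a mean of 15536 ± 933 (SD, n = 3). Each of these libraries lay above every wild-type library, and the 3 lay close together. The ME values were 23232, 12925 and 10290 CPM, with a mean of 15483 ± 6839 (SD, n = 3). These too all lay above wild type, but ME library 1 held the highest value of the 12 libraries and ME library 3 was within 1.18-fold of the wild-type mean. The SH values were 8485, 9790 and 11474 CPM, with a mean of 9916 ± 1499 (SD, n = 3). The lowest SH library lay among the wild-type ones and the other two above them, so the groups overlapped. In bulk RNA from whole animals, more cells of a type and more RNA per cell cannot be told apart.

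**Figure D1:**
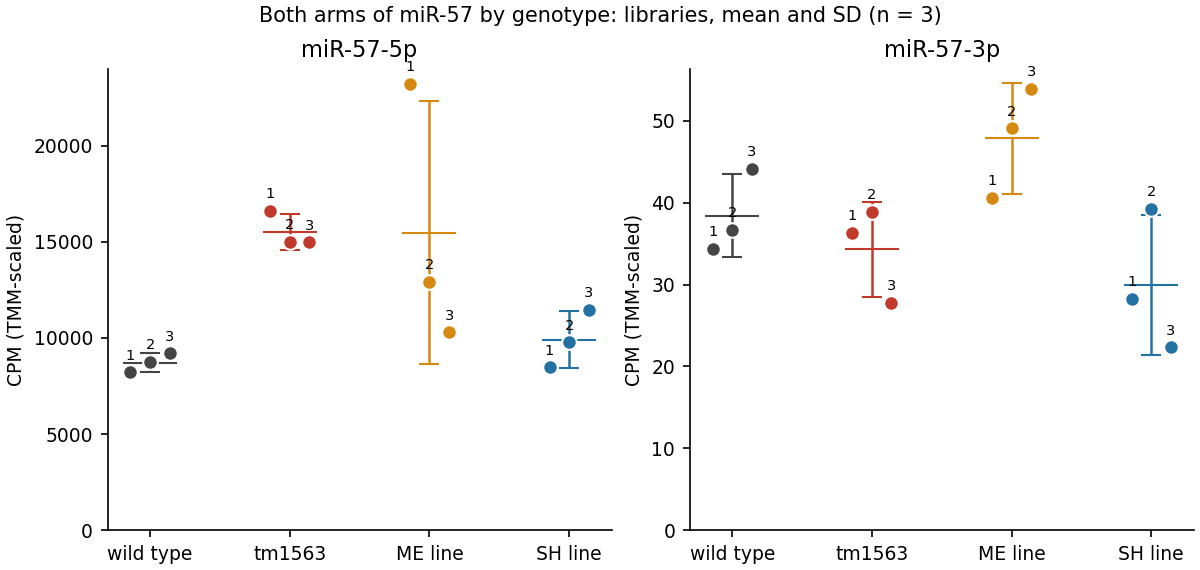
Level of miR-57-5p (left) and miR-57-3p (right) in TMM-scaled CPM for each library, numbered, with the mean and SD of the 3 libraries of a genotype as horizontal bars. The 5p values of tm1563 (14984 to 16613 CPM) sit together above wild type, those of the ME line spread from 10290 to 23232 CPM, and the 3p values of each mutant group overlap those of wild type.

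The raw counts behind these levels ran from 54955 in wild-type library 1 to 187121 in ME library 1, out of 6946205 to 12053039 counts per library. As a share of all counts, miR-57-5p made up 0.647% (Wilson 95% interval 0.642% to 0.652%) in wild-type library 1 and 2.32% (2.31% to 2.33%) in ME library 1, the extremes of the set. These intervals cover counting error only. By abundance the arm held rank 19, 20 and 19 in the wild-type libraries, 15, 16 and 15 in tm1563, 12, 16 and 18 in the ME line, and 20, 18 and 16 in the SH line. The place in the order of abundance thus moved by a few ranks between genotypes.

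Against wild type, edgeR's fit gave miR-57-5p a log2 fold change of 0.83 in tm1563 (SE 0.24, 95% interval 0.33 to 1.33), a level 1.78-fold that of wild type. Among the 41 features that averaged at least 1000 CPM this was the highest log2 fold change. Among all 250 it ranked 18th from the top. A high place among abundant features is favoured by the rule, and miR-47-3p came close, at a value that also rounds to 0.83. In that comparison 5.20% of the 250 features passed the threshold of an adjusted p under 0.05 as higher and 4.80% as lower, and in 20.0% all 3 mutant libraries lay above all 3 of wild type. These are 13 features higher and 12 lower, a split that depended on the scaling (6 and 22 with upper quartile factors, 14 and 1 with library totals). Since the rule used this contrast, nothing is read from those shares or from the ranks. The interval makes no allowance for the choice and is no test. The ME line gave miR-57-5p a log2 fold change of 0.83 (SE 0.24, 0.33 to 1.33), or 1.77-fold. That was again the highest among the 41 abundant features and 24th of 250, and is likewise descriptive. Both SEs rest on a spread estimated over all genotypes together, so they do not reflect each group's own. The SD of log2 CPM was 0.61 in the ME line and 0.09 in tm1563. In the ME comparison 7.60% of features were called higher and 6.0% lower, and 18.4% had all ME libraries above all of wild type. That is 19 higher and 15 lower, against 5 and 36 with upper quartile factors, and 4 and 6 without ME library 1. The means of the ME line and tm1563 differed by a log2 value of -0.0050 (95% interval -0.50 to 0.49) for this arm.

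The SH line was the one in which the difference could be tested. For miR-57-5p the log2 fold change against wild type was 0.19 (SE 0.23, 95% interval -0.31 to 0.68), or 1.14-fold, which did not pass edgeR's quasi-likelihood test (adjusted p = 0.810). In this comparison 0.00% of features were called higher and 2.00% lower, and 7.20% had all SH libraries above all of wild type, so few features of any kind stood apart. The interval ends below the estimates of 0.83 in tm1563 and the ME line. Those carry errors of their own and come from the contrasts used in the choice, which favours high values. Set against the SH line, miR-57-5p was higher by a log2 value of 0.65 in tm1563 (0.15 to 1.15) and 0.64 in the ME line (0.14 to 1.14), values that share the libraries of the choice and are descriptive. All tm1563 libraries lay above all SH libraries, whereas ME library 3 lay below SH library 3. The shares of all features without overlap were not counted for these pairs. The order of the genotype means was thus tm1563 and the ME line, which were level, then the SH line and wild type, whose libraries overlapped.

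**Figure D2:**
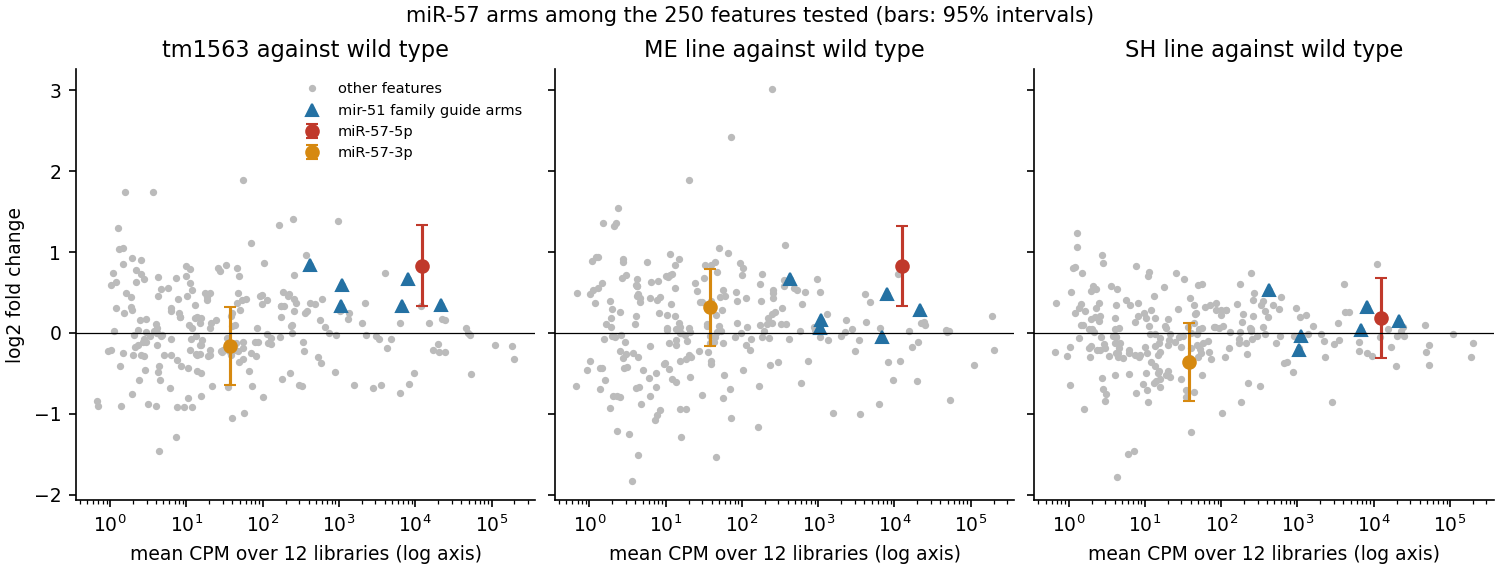
Log2 fold change against wild type (vertical axis) by mean CPM over the 12 libraries (horizontal log axis) for the 250 features tested, in tm1563, the ME line and the SH line, with 95% intervals for the arms of miR-57. The 5p arm sits at the abundant end, at 0.83, 0.83 and 0.19. In the tm1563 and ME panels few grey points at that end lie as high, which the choice of the arm favours. The 3p arm sits at -0.16, 0.32 and -0.36.

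The other arm, miR-57-3p, is scarce, with 171 to 543 counts per library, ranks of 105 to 131, and a counting error of 4.29% to 7.65% (Poisson coefficient of variation). In wild type it stood at 34.4, 36.7 and 44.1 CPM, with a mean of 38.4 ± 5.09 (SD, n = 3). In tm1563 it stood at 36.3, 38.9 and 27.8 CPM, with a mean of 34.3 ± 5.82 (SD, n = 3). The highest 2 of these lay within the wild-type range and library 3 lay under it, although the 5p level of that library was about 1.72-fold the wild-type mean. The ME libraries stood at 40.6, 49.1 and 53.9 CPM, with a mean of 47.9 ± 6.76 (SD, n = 3). Here the order of the libraries was the reverse of that for the 5p arm, with library 1 lowest and library 3 highest. The SH libraries stood at 28.3, 39.3 and 22.4 CPM, with a mean of 30.0 ± 8.59 (SD, n = 3). Library 3, the highest of the SH line for the 5p arm, was the lowest of all 12 for the 3p arm.

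The log2 fold change of miR-57-3p against wild type was -0.16 in tm1563 (SE 0.23, 95% interval -0.64 to 0.31), and 0.32 in the ME line (SE 0.23, -0.16 to 0.79). Both intervals span 0, and the libraries of both groups overlapped those of wild type. In the SH line it was -0.36 (SE 0.23, -0.84 to 0.12), which did not pass edgeR's test (adjusted p = 0.508). The arm was higher in the ME line than in tm1563 by a log2 value of 0.48 (-0.00014 to 0.96). All 3 ME libraries lay above all 3 of tm1563, a description for the same reason as above. The share of all features that did so was not counted for this pair, so nothing is read from it.

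The ratio of the arms within a library needs no scaling between libraries. In wild type there were 239, 238 and 208 counts of miR-57-5p for each count of miR-57-3p. In tm1563 there were 457, 386 and 539, all above wild type. The ME libraries had 572, 263 and 191, so ME library 1 had the highest ratio of the 12 libraries and ME library 3 the lowest. The SH libraries had 300, 249 and 513, all above wild type although library 2 was close to it. On the log2 scale, with 1 count added to each arm, the ratio averaged 7.83 ± 0.11 in wild type, 8.83 ± 0.24 in tm1563, 8.39 ± 0.54 in the SH line and 8.25 ± 0.81 in the ME line (SD, n = 3 for every group). The SH line exceeded wild type by 0.56, or 1.48-fold, with p = 0.1 in a two-sided exact permutation test, the smallest value that 3 libraries against 3 allow. That design cannot reach 0.05. The ratios of tm1563 and the ME line were not tested, since their 5p values served in the choice, which favours high ratios there.

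**Figure D3:**
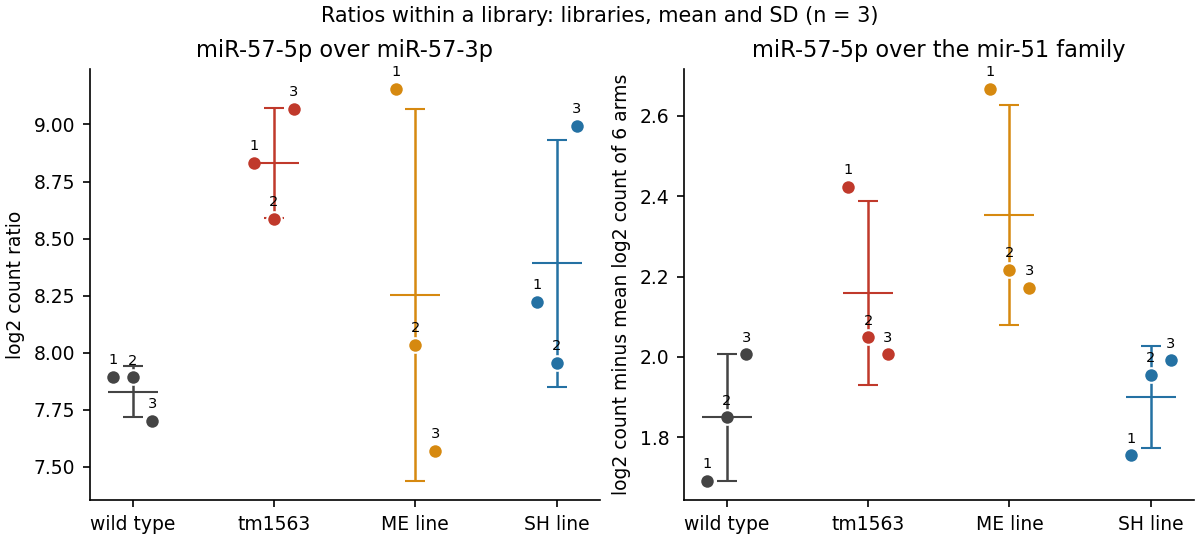
Log2 ratio of the counts of miR-57-5p to miR-57-3p (left), and of miR-57-5p to the mean of the log2 counts of the 6 mir-51 family arms (right), for each numbered library with the mean and SD (n = 3). The arm ratio lies at 7.70 to 7.89 in wild type and 8.59 to 9.07 in tm1563, and in the ME line it runs from 7.57 to 9.16.

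The spread of miR-57-5p within a genotype was uneven. The SD of its log2 CPM was 0.08 in wild type and 0.09 in tm1563. These were narrower than the medians of 0.19 and 0.15 over the 41 abundant features, among which it ranked 37th and 35th from the widest. The wild-type SD depends on the TMM scaling, since before it the share of counts was 0.647% in library 1 and 0.935% and 0.939% in the others. In the SH line the SD was 0.22 (median 0.19, 18th). For the ME line it was 0.61 (median 0.27), and only 2 of the 41 abundant features had a wider spread. As a multiple of the wild-type mean, the level was 2.66 in ME library 1, 1.48 in library 2 and 1.18 in library 3. The ME difference rested largely on that first library: without it the log2 fold change was 0.38, and 0.36 without both it and wild-type library 1. Among the ME libraries, library 1 was also the one with the lowest level of the muscle miRNA miR-1-3p, at 125351 CPM against 208083 and 242955, and whether the shift in miR-57-5p is tied to that was not tested.

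The mir-51 family comprises miR-51 to miR-56, broadly expressed worm miRNAs of the miR-10 and miR-100 kind that are needed for embryonic development. Its members resemble one another closely, so that their reads may have been divided among them in the authors' counting, and their single values are uncertain. The summed level of the 6 guide arms ran from 30590 to 36674 CPM in wild type and from 40888 to 47827 in tm1563, without overlap. In the ME line it ran from 28955 to 54033 CPM and in the SH line from 32754 to 45923, both overlapping wild type. In tm1563 each of the 6 arms had a log2 fold change above 0, and their median was 0.47 against 0.03 over the 250 features. Of these, 2 passed edgeR's test as higher, miR-53-5p at 0.85 (SE 0.23, adjusted p = 0.0398) and miR-56-3p at 0.59 (SE 0.17, adjusted p = 0.0420), against the 5.20% of all features. None passed as lower, against 4.80%, and for 4 of the 6 all tm1563 libraries lay above wild type, against 20.0% of all features. The 2 calls depended on the processing: that of miR-53-5p was lost in 6 of 15 alternatives and that of miR-56-3p in 12 of 15.

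For miR-53-5p the wild-type libraries held 286, 343 and 242 CPM and those of tm1563 held 470, 564 and 530. The ME libraries held 620, 451 and 312 CPM, which fall in the same order as those of miR-57-5p. Against wild type, 0 of the 6 family arms of the ME line passed edgeR's adjusted threshold in either direction, against the 7.60% of all features called higher and 6.0% lower. At an unadjusted p under 0.05, 81 of the 250 features passed. For 0 of the 6 did all ME libraries lie above wild type, against 18.4% of all features. Of the 6 changes 5 were positive, but those of miR-55-3p and miR-56-3p turned negative with upper quartile factors, and those of miR-54-3p and miR-55-3p without ME library 1. The median was 0.22 against 0.07 over all features. Leaving out that library took miR-54-3p from 0.28 to -0.030, miR-55-3p from 0.06 to -0.065, miR-52-5p from 0.49 to 0.09 and miR-53-5p from 0.67 to 0.36, all on the log2 scale, so the positive changes of the family in the ME line rested largely on it. In the SH line 0 of 6 passed edgeR's adjusted threshold in either direction, against 0.00% of all features called higher and 2.00% lower, and 36 of the 250 had an unadjusted p under 0.05. Of the 6 changes 4 were positive, with a median of 0.09 against -0.03 over all features, and that of miR-54-3p turned negative without SH library 3 (-0.13).

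The order of the ME libraries recurred in several family arms. miR-52-5p stood at 2.02, 1.34 and 0.84 times its wild-type mean in ME libraries 1, 2 and 3, miR-53-5p at 2.14, 1.55 and 1.08, and miR-54-3p at 1.65, 1.15 and 0.86. The scarcer miR-55-3p ran from 1.17 to 0.93, and miR-51-5p from 1.19 to 0.83, in the same order. miR-56-3p did not follow it, at 1.16, 1.04 and 1.13. Measured against the mean of these 6 arms in its own library, on the log2 scale, miR-57-5p averaged 1.85 ± 0.16 in wild type, 2.16 ± 0.23 in tm1563, 2.35 ± 0.27 in the ME line and 1.90 ± 0.13 in the SH line (SD, n = 3 for every group). Compared with the log2 CPM values, the SD on this scale was smaller in the ME line (0.27 against 0.61) and the SH line (0.13 against 0.22) and larger in wild type (0.16 against 0.08) and tm1563 (0.23 against 0.09). The ME libraries all lay above those of wild type. So did the tm1563 libraries, though the lowest of them (2.0069) barely passed the highest of wild type (2.0064). The SH line differed from wild type by 0.05 (two-sided exact permutation p = 0.7, smallest possible 0.1). This ratio was chosen after the order of the ME libraries had been seen. Because miR-57-5p was picked for rising in tm1563 and the ME line, the positions of those groups above wild type are descriptive.

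**Figure D4:**
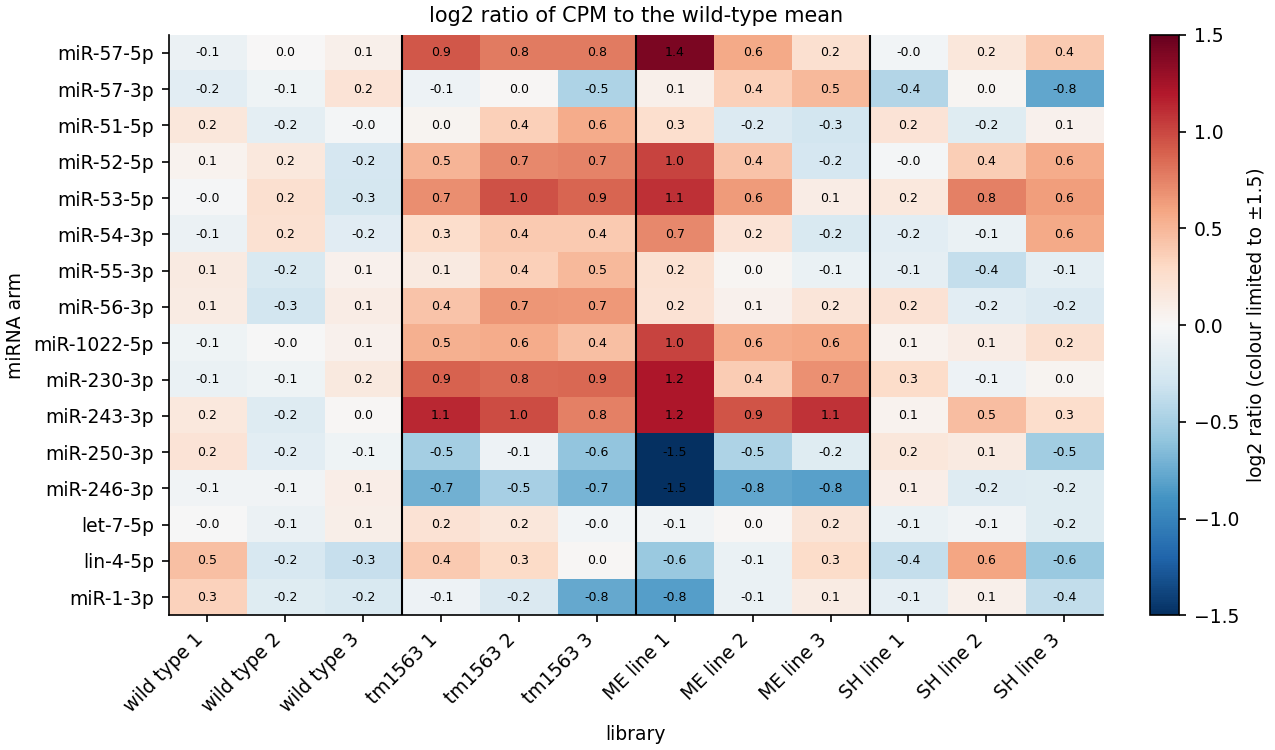
Log2 ratio of each library's CPM to the wild-type mean (colour, limited to ±1.5, value printed in each cell) for the arms of miR-57, the 6 mir-51 family arms, the features most and least like miR-57-5p, and 3 marker miRNAs. ME library 1 is the darkest column for miR-57-5p, at 2.66 times the wild-type mean, and for several family arms.

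The features most like miR-57-5p were ranked by Pearson r of log2 CPM over the 12 libraries, among the 166 other features that averaged at least 10 CPM. The libraries share their depth, scaling and genotype groups, so these values are descriptive. The highest were miR-1022-5p (r = 0.91), miR-230-3p (0.87), miR-52-5p (0.84), miR-53-5p (0.82) and miR-243-3p (0.81), against a median of 0.13. By rank correlation 4 of these 5 stayed among the first 5. With the genotype means removed 2 of them did, miR-1022-5p at 0.93 and miR-52-5p at 0.84, while miR-243-3p fell to 0.36. miR-1022-5p stood at 137, 142 and 150 CPM in wild type, 207, 210 and 195 in tm1563, 288, 211 and 214 in the ME line and 149, 154 and 169 in the SH line. Like miR-57-5p, it had higher levels in the tm1563 and ME groups and a peak in ME library 1. It was picked for its correlation over these same libraries, so that likeness restates the choice.

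miR-243-3p, which is known to be loaded into the RNA interference Argonaute RDE-1, differed more by genotype than by library. It held 263, 206 and 240 CPM in wild type, 516, 467 and 400 in tm1563, 548, 455 and 503 in the ME line and 245, 325 and 285 in the SH line. The least like were miR-246-3p (r = -0.88), a miRNA whose level in ageing adults is known to track lifespan, and miR-250-3p (-0.86). miR-246-3p held 4399, 4383 and 4904 CPM in wild type, 2761, 3218 and 2805 in tm1563, 1583, 2651 and 2587 in the ME line and 4890, 3988 and 4023 in the SH line. Its lowest value of the 12 fell in ME library 1, where miR-57-5p was highest, a contrast that the choice by lowest r favours.

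The 3 miRNAs next above miR-57-5p in mean wild-type level were miR-61-3p, miR-72-5p and miR-59-3p, and the 3 next below were miR-85-3p, miR-47-3p and miR-51-5p. They differed in direction, so similar abundance did not go with a similar change. In tm1563 miR-59-3p fell by 0.63 on the log2 scale (edgeR adjusted p = 0.0266), and in the ME line miR-61-3p, which acts in vulval precursor cells through the vav-1 mRNA, fell by 0.59 (edgeR adjusted p = 0.0453). The first call was lost in 4 of 15 alternatives, including those without wild-type library 1, wild-type library 3 or tm1563 library 1. The second was lost in 9 of 15, including those without wild-type library 1 or 3 or without ME library 1 or 2. The closest in size of change was miR-47-3p, with log2 fold changes of 0.83 in tm1563, 0.73 in the ME line and 0.85 in the SH line. None of these passed edgeR's test (adjusted p = 0.0622, 0.0734 and 0.135). In tm1563 it was called with DESeq2 (adjusted p = 0.0490), and by edgeR with library totals (adjusted p = 0.0430) or the 2 groups alone (adjusted p = 0.0130). In the SH line it was called with DESeq2 (adjusted p = 0.0414) and by edgeR without SH library 3 (adjusted p = 0.0313). For the SH line its estimate was several times the 0.19 of miR-57-5p, and the difference between these was not tested.

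The authors' deposited table for tm1563 lists 51 features that passed their own threshold, 24 higher and 27 lower. In that table miR-57-5p has normalized mean read counts of 138892 in the mutant and 81867 in wild type. Its log2 fold change there is 0.75, with an adjusted p-value of 5.59e-07 from the authors' own test. The tm1563 and wild-type libraries also served in the choice, so that p-value is descriptive and gives no independent test of miR-57-5p. By the authors' deposited table it ranked 10th in fold change among the higher features and had the second highest mean in the mutant among all 51. The authors' deposited tables for ME (41 features) and SH (12 features) list neither arm of miR-57 and no mir-51 family guide arm, while the tm1563 table lists 3 of the 6. The 51 features listed for tm1563, 41 for ME and 12 for SH are out of the 471 counted. The directions of the listed family arms were not counted. None of the 3 tables lists miR-57-3p.

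Markers of stage and tissue were set beside these results, with let-7-5p and lin-4-5p for larval timing, miR-1-3p for muscle, miR-124-3p for sensory neurons, and miR-35-3p to miR-42-3p for the germline and embryo. All 12 were detected, and 0 were called in any comparison with wild type by edgeR, with lowest adjusted p-values of 0.136 in tm1563, 0.140 in the ME line and 0.183 in the SH line. The shares of all features called higher or lower, 5.20% and 4.80% in tm1563, 7.60% and 6.0% in the ME line and 0.00% and 2.00% in the SH line, are small too, so 0 of 12 does not set the markers apart. In each comparison 6 of the 8 germline and embryo markers had positive changes, and their summed level ran from 1379 to 1594 CPM in wild type, 1675 to 1957 in tm1563, 1431 to 1879 in the ME line and 1707 to 1892 in the SH line. The summed level of these markers was therefore higher than wild type in every tm1563 and SH library, and its part in the miR-57-5p values was not tested. Single markers differed. In tm1563 miR-40-3p had a lower mean than in wild type (133 against 139 CPM), as had the scarce miR-41-3p (0.348 against 0.650 CPM). The share of positive changes over all features was not counted. The larval timing miRNA let-7-5p had log2 fold changes of 0.12 in tm1563, 0.06 in the ME line and -0.11 in the SH line, of which the first pair turned negative with upper quartile factors and the ME value also with relative log expression factors, DESeq2, no filter or without ME library 3. Wild-type library 1 stood apart, with 326 features detected against 365 to 400 elsewhere and a TMM factor of 0.788. After that scaling its miR-57-5p level was 0.94 times the wild-type mean. As a share of all counts the arm made up 0.647% there, against 0.935% and 0.939% in wild-type libraries 2 and 3.

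**Figure D5:**
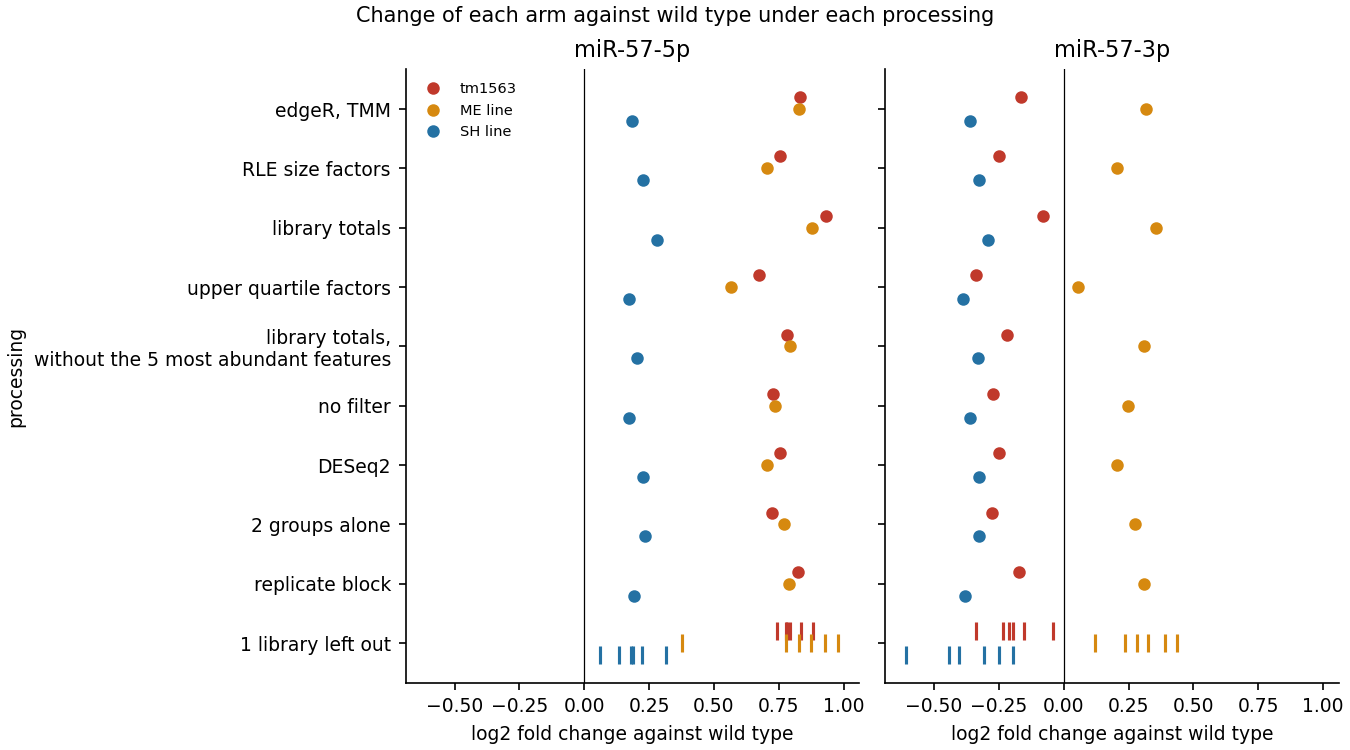
Log2 fold change of miR-57-5p (left) and miR-57-3p (right) against wild type under each processing, one row per setting, with ticks in the last row for fits that leave out 1 library. The 5p points of tm1563 and the ME line lie well to the right of 0 in every row, with the ME tick at 0.38 the one without ME library 1, and those of the SH line between 0.06 and 0.32.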

How the data were processed

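Small RNA of 12 libraries was analysed as deposited. The authors deposited whole-number read counts per mature arm with no normalization, for 370 named and 101 predicted miRNAs. Their comparison tables hold, per the file headers, a normalized mean signal for each group, the log2 of their ratio, and p-values before and after adjustment. Bowtie, DESeq2 and WBcel235 are named in the submitters' processing notes, without versions, and settings of alignment and counting were not stated there. That the codes MED and ME mean the same line was inferred from their likeness; across listed features, the authors' log2 values correlated with those of the count columns at 0.486 for ME and 0.852 for SH when the codes were exchanged and near 1 otherwise. In all, 0 library columns were left unmapped, and per-million columns were not used.

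Features were kept by edgeR's filterByExpr (minimum count 10, minimum total 15), and those not tested held 0.00490% of counts. The 12 libraries entered 1 quasi-likelihood fit (edgeR 4.0.16 in R 4.3.3, TMM, robust, no block), with Benjamini-Hochberg adjustment over 250 features at 0.05. The biological coefficient of variation was 22.7%. Log2 CPM used a prior count of 2. DESeq2 1.42.0 was an alternative. Depth was 6946205 to 12053039 counts, and 3 counts in the shallowest library equal 0.432 CPM. No 2 libraries of a group agreed within sampling noise. The named miRNAs were both arms, the 6 mir-51 family guide arms, the markers, 3 abundance neighbours on each side, and the 5 most and 2 least correlated features; features grouped by seed were not analysed here. The members and lists were chosen with earlier results of these data known.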

Additional observations from a re-analysis of the deposited data

How the results depend on the processing

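The direction of miR-57-5p in all 3 comparisons, and of miR-57-3p in all 3, against wild type was the same in every alternative run. For miR-57-5p in tm1563 the log2 fold change ran from 0.74 to 0.88 with 1 library left out and from 0.67 (upper quartile factors) to 0.93 (library totals) otherwise. In the ME line it ran from 0.38 to 0.98 with 1 library left out, and without wild-type library 1 and ME library 1, an alternative added after the data were seen, it was 0.36. In the SH line it ran from 0.06 to 0.32 with 1 library left out and from 0.13 to 0.28 otherwise (adjusted p 0.586 to 0.844). Between the ME line and tm1563 it ran from -0.34 to 0.27 with 1 library left out. For miR-57-3p the change in the ME line was 0.056 with upper quartile factors and ran from 0.12 to 0.44 with 1 library left out. In tm1563 that range was -0.34 to -0.04 and in the SH line -0.61 to -0.20. The SH arm ratio difference ran from 0.26 to 0.78, and the SH difference in the ratio to the mir-51 family, with 1 library left out, from -0.027 to 0.13.

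The mir-51 family calls in tm1563 numbered 0 with upper quartile factors, 1 with relative log expression factors, library totals, totals without the 5 most abundant features, no filter or the replicate block, 3 when the 2 groups were fitted alone, and 0 to 1 with 1 library left out. In the ME line they numbered 0 to 1. Changes that crossed 0 and moved by at least the SD between libraries, with the cause not tested, were let-7-5p in tm1563 (-0.041) and the ME line (-0.20), miR-55-3p (-0.19) and miR-56-3p (-0.10) in the ME line, all with upper quartile factors; let-7-5p in the ME line without ME library 3 (range -0.12 to 0.11 with 1 library left out); and lin-4-5p in the ME line without wild-type library 1 and ME library 1 (0.39). Other changes that missed the test also crossed 0, moving by less than that SD, among them miR-54-3p in the ME line without ME library 1 (-0.030), miR-1-3p in the ME line without wild-type library 1 and ME library 1 (0.22), lin-4-5p without wild-type library 1 in the ME (0.20) and SH (0.27) lines, and miR-85-3p in the SH line without SH library 2 (0.074). Of 18 same-numbered pairs of libraries, 3 correlated above 0.1 in their deviations and 9 below 0, with a range of -0.53 to 0.32. Pairs of unlike number were not compared, so these values do not settle whether the replicate numbers pair the libraries. With the replicate block miR-57-5p stood at 0.82 in tm1563, 0.79 in the ME line and 0.19 in the SH line. Over all features, the median log2 fold change with upper quartile factors was -0.13 in tm1563 and -0.18 in the ME line, against 0.03 and 0.07. Calls lower than wild type in tm1563 numbered 12, against 22 with DESeq2, 24 with the 2 groups alone, and 0 to 9 with 1 library left out; those higher numbered 13, against 8 without the filter, 5 to 9 with 1 library left out, and 19 without wild-type library 1 and ME library 1. In the ME line lower calls numbered 15, against 32 with DESeq2 and 9 with library totals. In the SH line they numbered 5, against 9 with DESeq2, which also made 1 higher call, and 0 with library totals or the 2 groups alone.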
